A study of Homo sapiens with 6 samples.

Results

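Stem cell factor genes were followed in prostate epithelial cells before and after transformation by arsenite. The set was a list of 9 genes fixed by name: SOX2, KLF4, PROM1, CD44, ABCG2, LGR5, NES, LY6D and TP63. Each gene was read from its brightest array feature that carries a single gene symbol, and 8 of the 9, out of 18417 genes in all, were measured. TP63 is not analysed here. Each of the 8 genes had 1 such feature. The untreated group was RWPE-1, an established non-tumorigenic line of normal human prostate epithelium immortalised with human papillomavirus genes, on 3 arrays at passages 18, 38 and 42. The exposed group was CAsE-PE, the malignant descendant of RWPE-1 grown without a break in 5 µM sodium arsenite, on 3 arrays at 30, 33.5 and 35 weeks. All 6 cultures shared a serum-free keratinocyte medium to which EGF and an extract of bovine pituitary were added. The labels do not say whether arrays of a group came from separate cultures or how many clones CAsE-PE holds, so p-values measure only the spread between these arrays, and the passage of the exposed cells is not given in the sources used here.

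Stem and progenitor cells renew themselves while giving rise to specialised cells, and a small set of genes is used to recognise them. SOX2 and KLF4 are transcription factors that, with partner factors, can return differentiated cells to a pluripotent state, and in epithelia SOX2 also acts in progenitors of some tissues and KLF4 in differentiation. PROM1, CD44, LGR5 and LY6D are surface proteins used to sort progenitor or tumour-initiating cells, ABCG2 pumps dyes and drugs out of the cell, and NES is an intermediate filament protein of progenitor cells. In the prostate, such markers are mostly described in basal cells and in rare luminal progenitors.

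The arrays were alike in scale, with median intensities of 91.7 to 97.2 units. Pearson correlations of log2 values across genes were 0.985 to 0.995 within groups and 0.956 to 0.969 between groups. The basal keratin KRT5 read 3569 to 4387 units and the luminal-type keratin KRT8 2087 to 2599 over the 6 arrays, whereas the secreted luminal antigen KLK3 (prostate-specific antigen) read 56.6 to 76.0. Each difference given is the mean log2(value + 1) of the 3 CAsE-PE arrays less that of the 3 RWPE-1 arrays, and its standard error (SE) comes from limma. A gene was called when its Benjamini-Hochberg adjusted p from limma over all genes was under 0.05, and only called genes are said to have risen or fallen. In all, 17.7% of genes were called, 9.04% higher and 8.71% lower in CAsE-PE.

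SOX2, the pluripotency and progenitor transcription factor, fell by a factor of 4.01 in CAsE-PE. Its intensity was 220.5, 256 and 359.6 units in RWPE-1 at passages 18, 38 and 42, and 89.0, 57.9 and 59.1 units in CAsE-PE at 30, 33.5 and 35 weeks. The lowest untreated array thus lay above the highest exposed one, and the groups did not overlap. The mean log2 level went from 8.10 ± 0.36 (SD) to 6.09 ± 0.35, a difference of −2.0 (SE 0.21, 95% interval −2.48 to −1.53, limma adjusted p = 0.000328). Of all genes, 2.06% were called lower with a fall of at least 2-fold. In RNA from whole cultures, fewer cells that express a gene and less RNA per cell cannot be told apart. The call held under all 13 alternative settings, with differences between −2.20 and −1.79.

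Within RWPE-1, SOX2 was highest at the latest passage, with a log2 value 0.70 above passage 18, so its shift over passages ran opposite to its shift to CAsE-PE. Of 564 genes at least 0.5 higher (log2) at passage 42 than at passage 18, 14 had a CAsE-PE mean at least 2-fold below passage 18, limits chosen after the values were seen. SOX2 was one of these 14, and the basal keratin KRT15 and the retinoic acid synthesis gene ALDH1A2 were others. The share of all genes that far below passage 18 was not counted, so how unusual this pattern is was not tested. In a limma model with passage and weeks as terms, the slopes of SOX2 were 0.02 log2 units per passage (adjusted p = 0.838) and −0.13 per week (adjusted p = 0.324), and neither was called. The weekly slope rested on the 30-week array and was 0.02 without it.

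The SOX2 promoter is printed because this gene showed the deepest fall of the set, and because the factor is known to bind near its own gene. The 250 bases before the RefSeq start of SOX2 (build GRCh38.p14, chr3:181711675-181711924, plus strand) are given 5′ to 3′, with the match to the SOX family core in capitals.
SOX2: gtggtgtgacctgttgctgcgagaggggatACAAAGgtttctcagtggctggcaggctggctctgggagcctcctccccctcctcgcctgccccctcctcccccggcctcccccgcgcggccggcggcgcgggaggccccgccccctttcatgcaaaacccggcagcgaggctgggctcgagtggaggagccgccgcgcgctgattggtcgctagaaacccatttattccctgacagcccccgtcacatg
Searched on both strands were the SOX core ACAANG, the KLF-type CACC box CCACCC, the antioxidant response element core TGACNNNGC and the TATA box TATAAA. These were held by 31.1%, 30.4%, 11.0% and 11.1% of 27305 promoters of the same length. The SOX2 window held 1 SOX core, which begins 220 bases before the start, and no match to the other motifs. It had 68.8% G and C and 20 CG dinucleotides, beside medians of 58.0% and 11 over all promoters. A match is a description of letters and not a bound site.

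**Figure D1:**
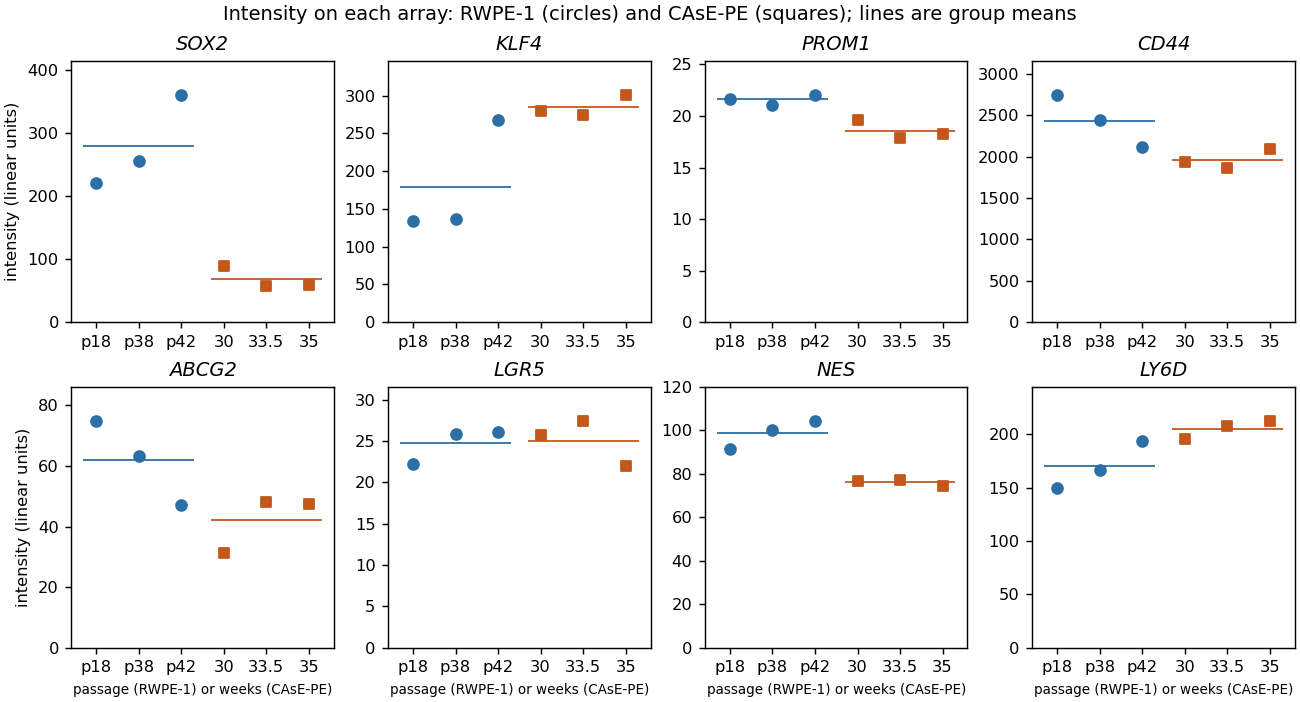
Intensity (linear units, axes from 0) of the 8 measured genes on each array, with circles for RWPE-1 at passages 18, 38 and 42, squares for CAsE-PE at 30, 33.5 and 35 weeks, and lines at the group means. SOX2 lies between 220.5 and 359.6 units in RWPE-1 and between 57.9 and 89.0 in CAsE-PE, and KLF4 at passage 42 reads 267 units beside 134 and 137 at the other passages.

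NES, which encodes the intermediate filament protein nestin, was the other gene that fell, by a factor of 1.29. It read 91.6, 100.3 and 104.5 units in RWPE-1 by passage and 76.8, 77.2 and 74.4 units in CAsE-PE by week. Every exposed array was below every untreated one, and the exposed arrays were close together. The difference was −0.37 (SE 0.10, 95% interval −0.59 to −0.15, limma adjusted p = 0.0300). This call was lost without the array of passage 38 (adjusted p = 0.111), passage 42 (0.0627), 33.5 weeks (0.0701) or 35 weeks (0.101), and after quantile normalisation, where the difference was −0.26 (adjusted p = 0.0708).

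KLF4, a zinc finger factor of reprogramming and of epithelial differentiation, had the highest positive difference of the set and was not called. Its intensity was 134, 137 and 267 units at passages 18, 38 and 42, and 279, 275 and 300.5 units at 30, 33.5 and 35 weeks. Passages 18 and 38 were low, passage 42 was close to the exposed arrays, and the groups did not overlap. The difference was 0.74 (SE 0.23, 95% interval 0.21 to 1.27, limma adjusted p = 0.0593). Without the passage 42 array it was 1.07 (SE 0.10) and was called (adjusted p = 0.000655), as it was with array weights (0.99, adjusted p = 0.00108) and with centred array medians (0.77, adjusted p = 0.0492).

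The KLF4 promoter is shown for comparison with that of SOX2, as the gene with the largest positive difference of the set, which was not called. It covers the 250 bases before the RefSeq start (GRCh38.p14, chr9:107489770-107490019, minus strand), and it has no capitals because none of the 4 motifs matched.
KLF4: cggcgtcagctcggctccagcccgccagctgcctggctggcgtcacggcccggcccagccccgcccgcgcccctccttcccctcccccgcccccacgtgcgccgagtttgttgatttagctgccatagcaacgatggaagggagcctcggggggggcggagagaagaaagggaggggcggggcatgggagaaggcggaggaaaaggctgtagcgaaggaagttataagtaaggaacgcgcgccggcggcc
It had 69.2% G and C and 25 CG dinucleotides. Over the set, RefSeq promoters of 7 of the 9 listed genes were at hand. ABCG2 held 1 SOX core and CD44 held 1 antioxidant response element core, and the PROM1, NES and TP63 windows held none of the motifs.

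LY6D, a small surface protein anchored by a lipid tail that marks luminal progenitor cells of the prostate, differed in the same direction as KLF4. It read 149.7, 166 and 194 units in RWPE-1 by passage and 196, 208 and 213 units in CAsE-PE by week. The passage 42 array lay just under the lowest exposed array, and the groups did not overlap. The difference was 0.28 (SE 0.12, 95% interval 0.01 to 0.54, limma adjusted p = 0.137), and without passage 42 it was 0.38 and called (adjusted p = 0.0469).

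CD44, the hyaluronan receptor used to sort prostate progenitors, was bright on every array. It read 2741, 2443 and 2120.0 units in RWPE-1 by passage and 1930.0, 1858 and 2091 units in CAsE-PE by week. The lowest untreated value, at passage 42, was close to the highest exposed value. The difference was −0.31 (SE 0.12, 95% interval −0.58 to −0.04, limma adjusted p = 0.112). Without passage 42 it was −0.40 and called (adjusted p = 0.0447). Splice forms of CD44 are not told apart here.

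ABCG2, the drug and urate efflux pump behind the side-population phenotype of stem cells, had overlapping groups. Its values were 75.0, 63.2 and 47.2 units in RWPE-1 by passage and 31.2, 48.0 and 47.6 units in CAsE-PE by week. Passage 42 lay inside the exposed range, and 30 weeks was the lowest array. That 30-week value lay below the lower quartile of features on its array (33.2 units), so the size of the difference is uncertain. The difference was −0.54 (SE 0.20, 95% interval −1.0 to −0.08, limma adjusted p = 0.103), and −0.72 without passage 42, when it was called (adjusted p = 0.0468). Without the 30-week array it was −0.34 (adjusted p = 0.232).

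Without the passage 42 array, KLF4 and LY6D were thus called higher and SOX2, CD44 and ABCG2 lower, where 7.99% of all genes were called higher and 8.25% lower. For KLF4, LY6D, CD44 and ABCG2, passage 42 was the untreated array nearest to CAsE-PE, so leaving it out widens the difference. Other alternatives narrowed it, down to 0.57 for KLF4, 0.19 for LY6D and −0.22 for CD44. Over all alternatives their limma adjusted p reached 0.191, 0.343 and 0.292. The values of 7 of the 8 genes were ordered by passage, as were those of 45.2% of all genes. Of the 7, 5 were ordered upwards (25.7% of all genes) and 2 downwards (19.5%). For 5 of them, KLF4, LY6D, CD44, ABCG2 and LGR5, the order ran from passage 18 towards the CAsE-PE mean, as it did for 27.1% of all genes. The remaining step from passage 42 to the CAsE-PE mean was 0.09 for KLF4, 0.08 for LY6D, −0.12 for CD44 and −0.18 for ABCG2, beside −2.40 for SOX2 and −0.45 for NES. For 2 of the 8 genes, ABCG2 and LGR5, the passage 42 value lay inside the CAsE-PE range, as for 27.4% of all genes. In the model with passage and weeks, no slope of the 8 genes was called, with a lowest adjusted p of 0.838 for passage and 0.284 for weeks. At an unadjusted threshold of 0.05, SOX2 and ABCG2 passed for both slopes, which makes 2 genes each, beside 5.82% of all genes for passage and 11.3% for weeks. Without the passage 38 array, the passage slope of KLF4 was 0.04 log2 units per passage and was called (limma adjusted p = 0.0373), as were 0.966% of all genes in that fit. That slope runs through passages 18 and 42 alone, so its p measures no spread among untreated arrays. On the array left out, KLF4 read 137 units, close to the 134 at passage 18. With all 6 arrays, 0.0217% of all genes were called with passage and 0.250% with weeks. The share of the group difference that belongs to time in culture cannot be told apart from that of arsenite, because exposed and untreated arrays have no common passage in the labels.

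**Figure D2:**
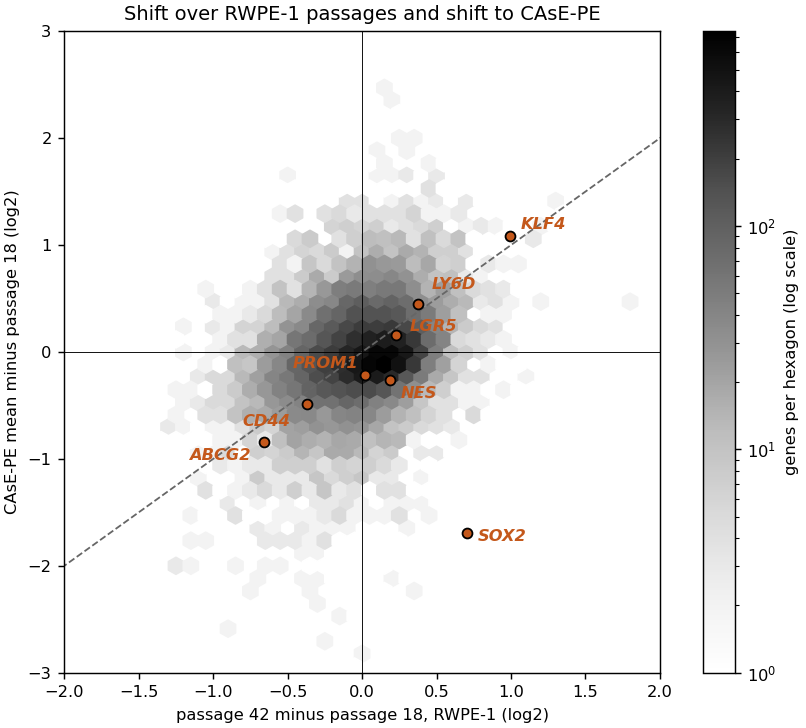
Shift from passage 18 to passage 42 within RWPE-1 (horizontal, log2) against the shift from passage 18 to the CAsE-PE mean (vertical, log2), with all genes as grey hexagons on a log colour scale, 34 genes beyond the plotted range, and the 8 genes as points. Both axes subtract the same passage 18 array. KLF4, LY6D, CD44 and ABCG2 lie near the dashed line of equal shifts, and SOX2 lies at 0.70 and −1.70.

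PROM1 and LGR5 were dim, below the lower quartile of all features (32.4 to 34.3 units) on every array, so these values cannot be told from background. PROM1, the membrane protein known as CD133, read 21.7, 21.1 and 22.0 units in RWPE-1 by passage and 19.6, 17.9 and 18.2 units in CAsE-PE by week. Its groups did not overlap, but the difference of −0.21 (SE 0.09, 95% interval −0.42 to 0.003) did not pass (limma adjusted p = 0.160) and was −0.12 after quantile normalisation or with a pseudocount of 16. LGR5, the R-spondin receptor of Wnt-driven stem cells, read 22.2, 25.9 and 26.2 units in RWPE-1 and 25.7, 27.5 and 22.0 units in CAsE-PE. Its arrays overlapped fully and the difference was 0.02 (SE 0.12, 95% interval −0.25 to 0.28, limma adjusted p = 0.941).

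Over the set, 2 of the 8 measured genes fell, 6 did not pass and 0 rose in limma, beside 8.71% of all genes lower and 9.04% higher. At an unadjusted threshold of 0.05, 2 were higher and 4 lower, beside 15.1% and 17.3% of all genes. Untreated and exposed arrays were fully separated for 6 of the 8, beside 38.9% of all genes. PROM1 was among these 6, though its values could not be told from background. The genes were chosen with earlier results of these data known. With array weights, 2 of the 8 were called higher and 4 lower, beside 29.0% of all genes in either direction (14.1% higher and 14.9% lower). The median difference of the 8 genes was −0.26, and that of all genes −0.06.

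**Figure D3:**
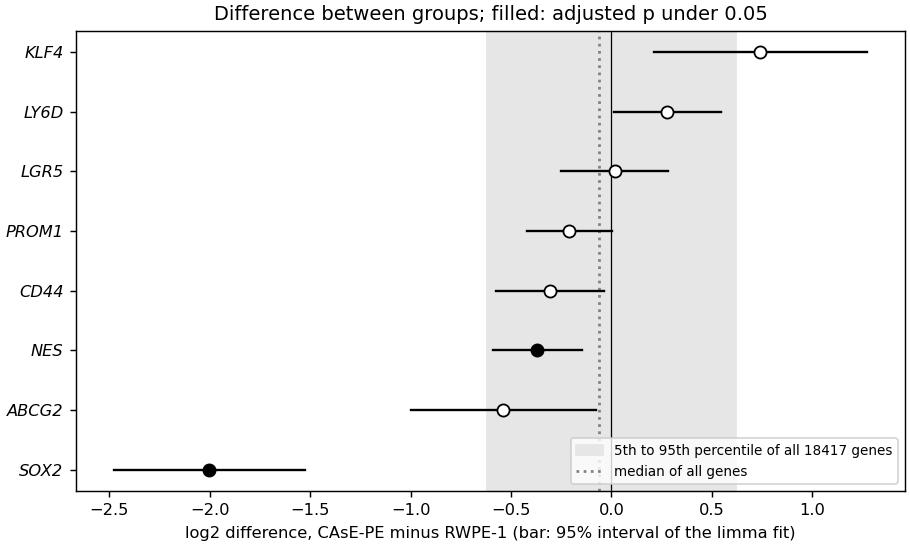
Log2 difference, CAsE-PE minus RWPE-1, of the 8 genes with 95% intervals of the limma fit; filled points have an adjusted p under 0.05, the grey band spans the 5th to 95th percentile of all genes and the dotted line is their median. SOX2 at −2.0 lies far below the band, and KLF4 at 0.74 lies above it with an interval from 0.21 to 1.27.

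The genes whose pattern was most like that of SOX2 over the 6 arrays, by Pearson correlation of log2 values among 1174 other genes with an SD of at least 0.5, were DNAAF9, ZNF711 and DOCK11. DNAAF9, a dynein arm assembly gene, had r = 0.997, with 380.0, 401 and 449 units in RWPE-1 and 225, 180.3 and 186 units in CAsE-PE. ZNF711, a zinc finger gene of the X chromosome, had r = 0.997, with 60.2, 69.1 and 79.0 units and then 27.6, 21.1 and 21.0 units, the latter below the lower quartile of features. DOCK11, an activator of the small GTPase CDC42, also had r = 0.997, with 152, 155 and 204 units and then 67.8, 47.1 and 43.1 units. Each was highest at passage 42 and lower in CAsE-PE, and within CAsE-PE highest at 30 weeks. These correlations share the 6 arrays and their grouping, and they describe likeness only.

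None of the 3 measured genes on each side of SOX2 on chromosome 3 fell, where 8.71% of all genes were lower and 9.04% higher. Among them MCCC1, a mitochondrial carboxylase subunit, rose (0.58, SE 0.13, limma adjusted p = 0.0153). That call was lost without the array of passage 18 (adjusted p = 0.0520), passage 38 (0.0581) or 35 weeks (0.0623). CCDC39, FXR1, DNAJC19, ATP11B and DCUN1D1 differed by 0.10, 0.09, 0.23, 0.12 and 0.65 and did not pass. Beside KLF4, the ion channel gene TMEM38B rose (1.08, SE 0.15), and ZNF462, RAD23B, ACTL7B, ACTL7A and ABITRAM did not pass, at −0.20, 0.30, −0.32, −0.04 and 0.19.

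Among 6 neighbours each, 2 of ABCG2 and 1 of CD44 fell, where 8.71% of all genes were lower and 9.04% higher. ABCG2 and CD44 were themselves not called. Next to ABCG2 the interferon-induced ubiquitin ligase genes HERC6 (−1.75, SE 0.17) and HERC5 (−1.37, SE 0.22) fell, and PPM1K, SPP1, MEPE and HSP90AB3P differed by −0.29, 0.01, −0.13 and 0.11 without passing. At the outer end of the CD44 neighbours, the epithelial ETS factor gene EHF fell by 2.43 on the log2 scale (SE 0.31, limma adjusted p = 0.000895), while PDHX (0.19), APIP (0.01), SLC1A2 (−0.35), PAMR1 (−0.24) and FJX1 (−0.15) did not pass. Around PROM1, CD38 fell (−0.32, SE 0.09), a call lost after removal of any array other than passage 42 (adjusted p up to 0.151, without passage 38), after quantile normalisation (−0.19, adjusted p = 0.202), with centred array medians (0.0654) and with a pseudocount of 16 (0.0637). The other PROM1 neighbours FGFBP1 (−0.68), FGFBP2 (−0.10), TAPT1 (0.15), TAPT1-AS1 (0.08) and LDB2 (−0.25) did not pass. The neighbours of LGR5 (PTPRB, PTPRR, TSPAN8, ZFC3H1, THAP2 and TMEM19), of NES (GPATCH4, HAPLN2, BCAN, CRABP2, ISG20L2 and METTL25B) and of LY6D (SLURP1, LYPD2, LYNX1, GML, CYP11B1 and CYP11B2) were not called, with median differences of 0.03, −0.11 and −0.13.

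**Figure D4:**
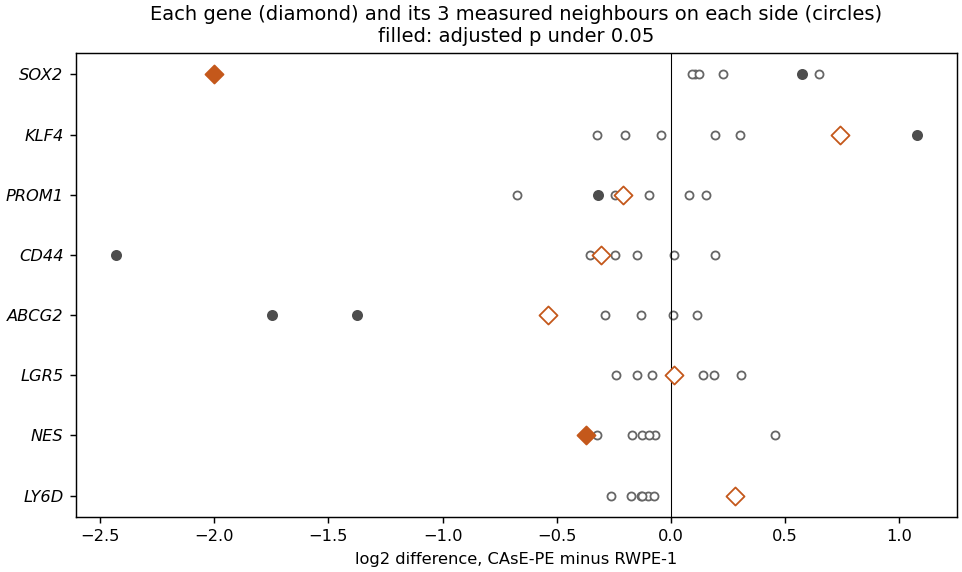
Log2 difference, CAsE-PE minus RWPE-1, of each of the 8 genes (diamonds) and of its 3 measured neighbours on each side of the chromosome (circles), filled where the adjusted p was under 0.05. The neighbours of SOX2 lie between 0.09 and 0.65, whereas SOX2 lies at −2.0.

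Among core pluripotency genes, 2 of 22 rose, 2 fell and the other 18 were not called, with a median difference of −0.12. These shares were near those of all genes (9.04% higher and 8.71% lower). TFCP2L1, a factor of naive pluripotent cells, rose by 1.20 (SE 0.28), with 518, 649 and 1244 units in RWPE-1 by passage and 1810, 1459 and 1944 in CAsE-PE by week. Like KLF4, it was highest at passage 42 among the untreated arrays. The zinc finger gene SALL4 rose by 0.55 (SE 0.14). ZFP42, which encodes the pluripotency marker REX1, fell by 1.21 on the log2 scale (SE 0.13, limma adjusted p = 0.000436), from 49.4 to 67.1 units in RWPE-1 to 21.7 to 26.2 units in CAsE-PE. The latter values lie below the lower quartile of features, so that the size of this fall is uncertain. TBX3 fell (−0.53, SE 0.13). MYC, the fourth factor of the reprogramming mix, differed by 0.08 (SE 0.10, adjusted p = 0.611), and by 0.02 without passage 38 and 0.13 without passage 18. POU5F1 and NANOG are not analysed here. The call of TFCP2L1 was lost without passage 38 (adjusted p = 0.0702) or 35 weeks (0.0655), that of TBX3 without passage 18 (0.0691), passage 38 (0.0866) or 35 weeks (0.0682), and that of SALL4 without passage 18 (0.0941), passage 38 (0.0885), 30 weeks (0.0698) or 33.5 weeks (0.0668).

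The other SOX family members moved less than SOX2. Of 18, 3 fell and 15 were not called, with a median of −0.15, where 8.71% of all genes were lower and 9.04% higher. The falls were in SOX15, a close relative of SOX2 in keratinocytes and muscle precursors (−0.55, SE 0.12), in SOX13 (−0.50, SE 0.11) and in SOX4 (−0.41, SE 0.11), the last named after its value was seen. SOX9, a factor of epithelial progenitors, differed by −0.03 (SE 0.16, adjusted p = 0.925), and by 0.10 without 35 weeks and −0.19 without 30 weeks. The call of SOX15 was lost without 35 weeks (adjusted p = 0.0620), that of SOX13 without 33.5 weeks (0.0568) or 35 weeks (0.0534), and that of SOX4 without passage 18 (0.104), passage 38 (0.0975), 30 weeks (0.0688) or 35 weeks (0.0782).

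In the KLF family, 2 of 16 measured genes rose and 4 fell, where 9.04% of all genes were higher and 8.71% lower. KLF12, a repressor, fell by 1.65 on the log2 scale (SE 0.13, limma adjusted p = 5.7e-05), from 116, 133 and 158 units to 44.4, 42.3 and 40.1. As with SOX2, its highest value was at passage 42. KLF11 rose by 0.81 (SE 0.11) and KLF13 by 0.46 (SE 0.11). KLF8 fell (−0.52, SE 0.13), with 21.1 to 28.2 units in CAsE-PE, below the lower quartile of features, so that its size is uncertain. KLF7 (−0.43) and KLF16 (−0.42), named after their values were seen, fell as well. KLF5, the basal and progenitor relative of KLF4, differed by −0.33 (SE 0.15, adjusted p = 0.153), and by −0.16 without passage 42 and −0.21 with array weights. The calls of KLF13, KLF8, KLF7 and KLF16 were each lost without passage 38 (adjusted p = 0.0951, 0.0855, 0.131 and 0.0846) and without 35 weeks (0.0519, 0.0734, 0.0927 and 0.0871). KLF13, KLF7 and KLF16 also lost theirs without passage 18 (0.0779, 0.143 and 0.0548), KLF13, KLF8 and KLF7 without 30 weeks (0.0514, 0.0640 and 0.0587), KLF7 without 33.5 weeks (0.132) and KLF8 without passage 42 (0.0772). With all features of the gene averaged, KLF13 differed by 0.16 (adjusted p = 0.359). Quantile normalisation ended the calls of KLF13 (adjusted p = 0.0546) and KLF8 (0.0652), and centred array medians that of KLF7 (0.0659).

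Known partners and targets of SOX2 held 1 rise and 2 falls among 18 measured, where 9.04% of all genes were higher and 8.71% lower. The hedgehog effector GLI2 fell by 0.93 on the log2 scale (SE 0.11, limma adjusted p = 0.000587) and the cyclin gene CCND1 fell (−0.65, SE 0.17), while ZIC2 rose by 0.47 (SE 0.13). CCND1 lost its call without passage 18 (adjusted p = 0.0960), passage 38 (0.113), 33.5 weeks (0.0922) or 35 weeks (0.105), and ZIC2 after removal of any array other than passage 42 (up to 0.126, without passage 38) and after quantile normalisation (0.0641). SOX2-OT, the RNA that overlaps SOX2, is not analysed here.

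Although TP63 itself is not analysed, 28 relatives and targets of the basal factor p63 were measured. Of these 10 fell, 2 rose and 16 did not pass, with a median of −0.21, where 8.71% of all genes were lower and 9.04% higher. The matrix gene FRAS1 fell by 2.28 on the log2 scale (SE 0.11) and the integrin activator FERMT1 by 1.83 (SE 0.30). CSTA, a protease inhibitor of the cornified layer, rose by 0.68 (SE 0.16), a call lost without passage 38 (adjusted p = 0.0712) or 35 weeks (0.0645). EVPL, which encodes envoplakin, rose by 0.37 (SE 0.10), and its call was lost after removal of any array other than 30 weeks (adjusted p up to 0.0995, without 35 weeks). The p63 relative TP73 differed by −0.07 (SE 0.15, adjusted p = 0.762), a sign that turned with array weights (0.11) and without passage 42 (0.09). Among 9 basal epithelial markers, 3 fell (KRT15 at −1.77, KRT14 at −1.60 and LAMB3 at −1.48, the last named after its value was seen). KRT14 and LAMB3 are also among the falls of the p63 list. The summed intensity of all 9 basal markers was 13674 to 14586 units in RWPE-1 and 10758 to 12606 in CAsE-PE, and 5 of the 9 were not called. The marker TRIM29 rose by 0.48, a call lost without passage 18 (adjusted p = 0.0988), passage 38 (0.159), 30 weeks (0.101) or 35 weeks (0.116) and after quantile normalisation (0.0856).

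**Figure D5:**
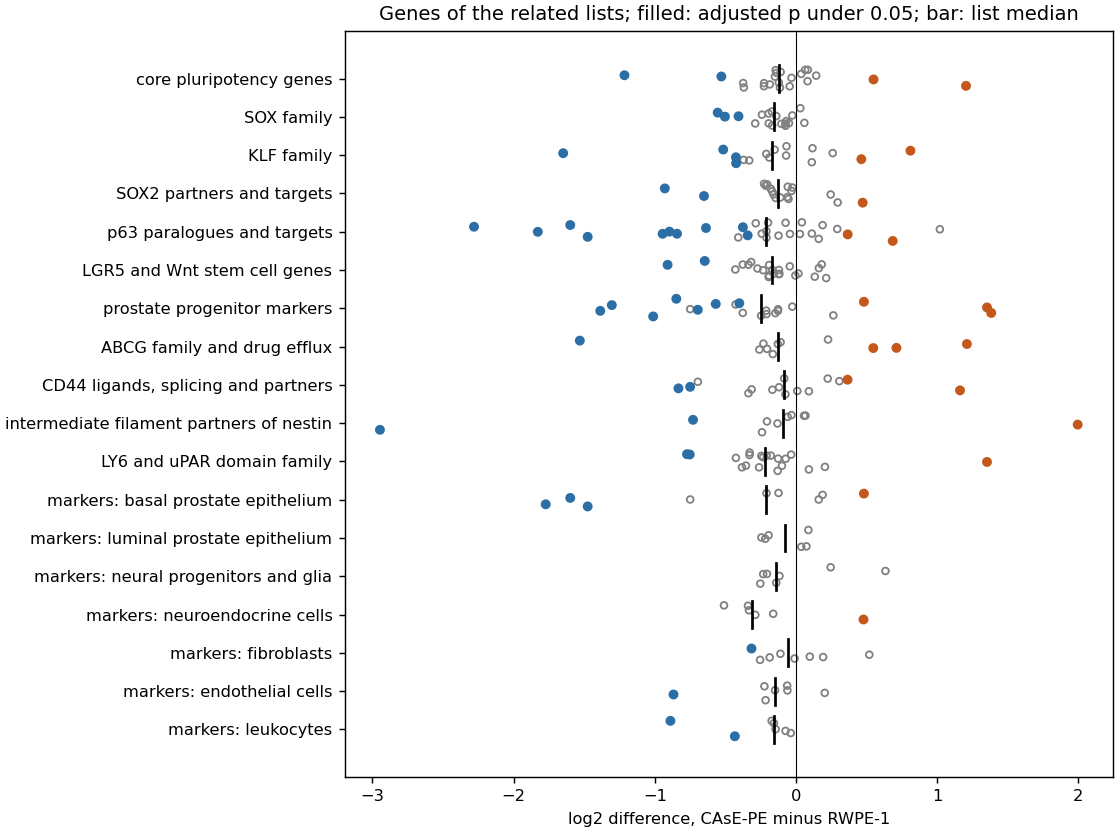
Log2 difference, CAsE-PE minus RWPE-1, of every measured gene in each related list (points; filled where the adjusted p was under 0.05) with the list median as a bar. The p63 list reaches −2.28 (FRAS1) and has 10 filled points below 0 and 2 above, and the SOX family has 3 below 0.

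Of 21 prostate progenitor markers, 3 rose, 7 fell and 11 did not pass, with a median of −0.25, where 9.04% of all genes were higher and 8.71% lower. The aldehyde dehydrogenase ALDH1A1 rose by 1.38 (SE 0.30), from 25.1 to 27.1 units in RWPE-1, below the lower quartile of features, so that the size of this rise is uncertain. The prostate stem cell antigen PSCA, a relative of LY6D, rose by 1.35 (SE 0.15). The keratin KRT13 fell (−1.39, SE 0.13), as did the surface antigen THY1 (−1.30, SE 0.12). In the LY6 and uPAR domain family, PSCA was the 1 rise among 20, LYPD6B (−0.77) and LYPD6 (−0.75) fell, and 17 did not pass.

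Among 23 genes that work with LGR5 in Wnt-driven stem cells, 2 fell, 0 rose and 21 did not pass, where 8.71% of all genes were lower and 9.04% higher. The share of falls was near that of all genes. At an unadjusted threshold of 0.05 in limma, 0 were higher and 5 lower, beside 15.1% and 17.3% of all genes. The called falls were in PHLDA1 (−0.91, SE 0.11) and in RSPO4, an R-spondin ligand (−0.65, SE 0.09). The LGR5 relatives LGR4 and LGR6 differed by −0.19 (SE 0.14) and −0.12 (SE 0.12). That of LGR4 was −0.08 without 30 weeks and −0.30 without 35 weeks, and that of LGR6 −0.03 without passage 42 and −0.20 without passage 38, the latter gene turning sign after quantile normalisation (0.02) and with array weights (0.01). PROM2, the relative of PROM1, differed by −0.30 (SE 0.16, adjusted p = 0.220), and by −0.14 without passage 42 and −0.12 with array weights.

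Among ABCG2 relatives and other efflux pumps, 3 of 11 rose and 1 fell, where 9.04% of all genes were higher and 8.71% lower. The organic anion pumps ABCC3 (1.21, SE 0.20) and ABCC1 (0.71, SE 0.13) rose, and the cyclic nucleotide pump ABCC4 fell by 1.53 on the log2 scale (SE 0.14). The sterol pump ABCG1, named after its value was seen, rose by 0.55 (SE 0.16), a call lost without passage 18 (adjusted p = 0.143), passage 38 (0.105), 30 weeks (0.108) or 35 weeks (0.167) and with a pseudocount of 16 (0.0577).

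Of 15 measured genes that make, bind or splice around CD44, 2 rose and 2 fell, where 9.04% of all genes were higher and 8.71% lower. The hyaluronan receptor HMMR rose by 1.16 (SE 0.20), and the epithelial splicing factor ESRP2 by 0.36 (SE 0.10), the latter no longer called after removal of any 1 array (adjusted p up to 0.135, without passage 38) and after quantile normalisation (0.0567). The protease MMP14, which cleaves CD44, fell (−0.83, SE 0.18), as did the proteoglycan core SRGN (−0.75, SE 0.11).

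Among 10 intermediate filament partners of nestin, 1 rose, 2 fell and 7 did not pass, where 9.04% of all genes were higher and 8.71% lower. VIM, the filament protein with which nestin assembles, fell by 2.95 on the log2 scale (SE 0.25, limma adjusted p = 0.000114), from 1659, 1308 and 1134 units to 244, 189.5 and 114. The neurofilament gene NEFL fell (−0.73, SE 0.11), and alpha-internexin, INA, rose by 2.0 (SE 0.30), from 150.2, 197 and 85.6 units to 394, 617 and 673.

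Markers of other cells that express these genes were read beside them, where 9.04% of all genes were called higher and 8.71% lower. At an unadjusted threshold of 0.05 in limma, 15.1% of all genes were higher and 17.3% lower. Of 7 neural markers none was called in limma, 1 being higher at an unadjusted threshold of 0.05, and their summed intensity was 499 to 619 units in RWPE-1 and 533 to 652 in CAsE-PE. Of 6 luminal markers none was called, 1 being lower at that unadjusted threshold (sums of 3737 to 4037 and 3855 to 4286 units). Neuroendocrine markers held 1 rise among 6, ENO2 (0.47, lost without passage 38, adjusted p = 0.0687), with sums of 685 to 761 and 689.5 to 760.1 units. Most of this list differed the other way, with a median difference of −0.31. At the unadjusted threshold 4 of the 6 neuroendocrine markers were lower and 1 was higher. Fibroblast markers held 1 fall among 8, PDGFRB (−0.32, no longer called after removal of any 1 array, adjusted p up to 0.156, without passage 38, nor after quantile normalisation, at −0.18 with 0.189, or with centred array medians, 0.0613), with sums of 525 to 550.5 and 517 to 538 units. Endothelial markers, among them cells where PROM1, NES and ABCG2 are known, held 1 fall among 7, ERG (−0.87), with sums of 416 to 458 and 362 to 394 units.

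Leukocyte markers, beside CD44 as a leukocyte antigen, held 2 falls among 7, where 8.71% of all genes were lower. Their sums were 1320 to 1599 units in RWPE-1 and 769 to 1057 in CAsE-PE. Most of these sums came from CD68, with mean log2 levels of 10.23 in RWPE-1 and 9.34 in CAsE-PE. The falls were in CD68 (−0.89, SE 0.16) and CD14 (−0.43, SE 0.11), the latter lost without passage 18 (adjusted p = 0.0884), passage 38 (0.0781) or 35 weeks (0.0989) and after quantile normalisation (0.0837). The defining leukocyte gene PTPRC read 12.3 to 14.9 units on all arrays, below the lower quartile of features.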

How the data were processed

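Total RNA was labelled with biotin after an Ambion whole-transcript kit, per the labels' protocols. The authors deposited 1 linear intensity per feature for 33252 features on 6 arrays. How these were background-corrected and normalised is not given in the sources used here. They carry no detection call, and the number of arrays limits precision. GEO's platform annotation named 19460 features with 1 symbol, 1754 had several and 12038 were not listed (19429 of the first were found in RefSeq by Entrez identifier). Each of 18417 genes took its brightest feature by mean log2(value + 1). The groups were compared in limma 3.58.1 (R 4.3.3, lmFit and eBayes, two-sided, Benjamini-Hochberg over all genes), with a second limma model for passage and weeks. Promoter letters and gene order came from RefSeq GRCh38.p14, and tables were made with Python 3.11.15 and pandas 2.3.3.

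Named were the listed genes, up to 2 rises and 2 falls per related list, 12 fixed relatives of which 7 were measured, genes most like a gene changed at least 2-fold, and 3 neighbours on each side. Members and lists were chosen with earlier results of these data known. The fits were tested on simulated data.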

Additional observations from a re-analysis of the deposited data

How the results depend on the processing

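The alternatives were quantile normalisation, centred array medians, a pseudocount of 16, the dimmest genes left out, averaged features, a trended robust variance, array weights, and each array left out in turn. SOX2 stayed called under all 13. Stem cell factor genes called lower numbered 1 after quantile normalisation, 4 with array weights and 1 to 3 without 1 array; those called higher numbered 1 with centred medians (KLF4), 2 with array weights (KLF4 and LY6D) and 0 to 2 without 1 array. Over all genes, array weights called 2596 higher and 2746 lower, and leaving out 1 array 949 to 1665 higher and 939 to 1519 lower, lowest without passage 38. With passage, limma called 4 genes, 0 after quantile normalisation (999 at an unadjusted threshold of 0.05), with a pseudocount of 16 (1082) or without the dimmest genes (797), 13 with the trended variance, and 3 to 178 without 1 array. With weeks it called 46 genes, 3 after quantile normalisation, 18 with a pseudocount of 16, 109 with the trended variance, and 7 to 226 without 1 array. For a slope refitted without an array of its own group, the spread between arrays came only from the other group.

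Every value that turned sign was uncalled. With array weights LGR5 differed by −0.026, LGR6 by 0.011 and TP73 by 0.11, and LGR6 by 0.02 after quantile normalisation. Without 1 array the differences ranged from −0.058 to 0.10 for LGR5, −0.19 to 0.10 for SOX9 and −0.19 to 0.090 for TP73. The passage slope of PROM1 ranged from −0.0019 to 0.015. Weekly slopes ranged from −0.0089 to 0.17 for ABCG2, −0.016 to 0.11 for CD44, −0.0066 to 0.086 for KLF4, −0.21 to 0.026 for LGR5, −0.035 to 0.0017 for NES, −0.036 to 0.017 for PROM1 and −0.17 to 0.019 for SOX2. The cause was not tested. Of 819 values of the other named genes under alternatives, 717 kept their call and direction, 94 lost the call and 8 turned sign. No paired analysis was possible because the labels give no pairing between exposed and untreated arrays. Low signal limits PROM1 and LGR5, which are near the dim end of the arrays.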
